A study of Homo sapiens with 3 samples.

Results

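The 48 genes of the proteasome subunit family were examined in H2087, a cell line established from a human lung adenocarcinoma. They are the protein-coding genes of GENCODE 44 on hg19 whose symbol consists of PSM, a letter from A to G and a number, and they make up 48 of 20163 protein-coding genes. The cells were untreated and of 1 line, with no normal or treated cells beside them. Chromatin was immunoprecipitated with an antibody against histone H3 trimethylated at lysine 4 (H3K4me3) or acetylated at lysine 27 (H3K27ac) and sequenced as 1 library per mark. The peak lists hold no expression, and the identity of the line was taken from its label. The third library, input chromatin without immunoprecipitation, was not analysed here.

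The proteasome is the protease that breaks down proteins tagged with ubiquitin. Its barrel-shaped core particle is built of rings of alpha subunits, which gate the channel, and rings of beta subunits, which hold the catalytic sites. The regulatory particle binds the ends of the barrel, where its lid and base capture and unfold ubiquitinated proteins with ATPases. In cells exposed to interferon, immune subunits replace the catalytic beta subunits and favour the production of peptides for MHC class I. H3K4me3 is a mark of active promoters, and H3K27ac of active promoters and enhancers.

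A gene was counted as marked when the edge of a peak lay within 1 kb of its start. The start was taken at the outermost 5′ position of the gene model (the outer start), and the start of the canonical transcript was used beside it. Peak strength is given as the value in the last column of the peak lists, which has no header and was read as −log10 q from the numbers alone. Its median was 2.97 over the 18585 H3K4me3 peaks and 2.65 over the 24096 H3K27ac peaks. Each mark had 1 library, so no value has a replicate and no difference was tested. Read depth is unknown from the peak lists, so an unmarked start may lack the mark or may have had too few reads.

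H3K4me3 was found at 30 of the 48 outer gene starts (62.5%) and H3K27ac at 20 (41.7%). Over all protein-coding genes, the shares were 38.2% and 23.6%. Both marks were present at 18 members (37.5%), against 18.6% of all protein-coding genes. H3K4me3 alone was present at 12 members and H3K27ac alone at 2, against 3959 and 1007 of the 20163 protein-coding genes, which is near the background. Neither mark was present at 16 members (33.3%), against 56.8% of all protein-coding genes. At the canonical starts, 34 members (70.8%) had H3K4me3, 26 (54.2%) had H3K27ac, 23 (47.9%) had both, and 11 (22.9%) had neither. The shares of all protein-coding genes were then 41.3%, 25.2%, 20.4% and 53.8%. Among the members with H3K4me3 at the outer start, 60.0% also had H3K27ac, compared with 48.6% of all protein-coding genes with H3K4me3.

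Proteasome genes are used by nearly every cell, and promoters of such genes are commonly rich in CpG dinucleotides. The ratio of observed to expected CpG within 500 bp either side of the canonical start was at least 0.6 in 40 of the 48 members (83.3%) and in 65.8% of all protein-coding genes. Of these 40 members, 67.5% had H3K4me3 and 55.0% had H3K27ac. Of all 13268 starts with such a ratio, 57.6% and 33.8% were marked. Read against CpG-rich starts, the H3K4me3 share of the members thus lay closer to the background than the H3K27ac share did. Of the 8 members below 0.6, 7 had H3K4me3, compared with 10.0% of all such starts. These 7 were PSMA6, PSMB5, PSMB8, PSMB10, PSMC2, PSMC6 and PSME2. The ratios of PSMA6 and PSMC6 (0.595 each) and of PSMB8 lay just under the limit, and that of PSME2 (0.382) was the lowest of the 7.

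**Figure D1:**
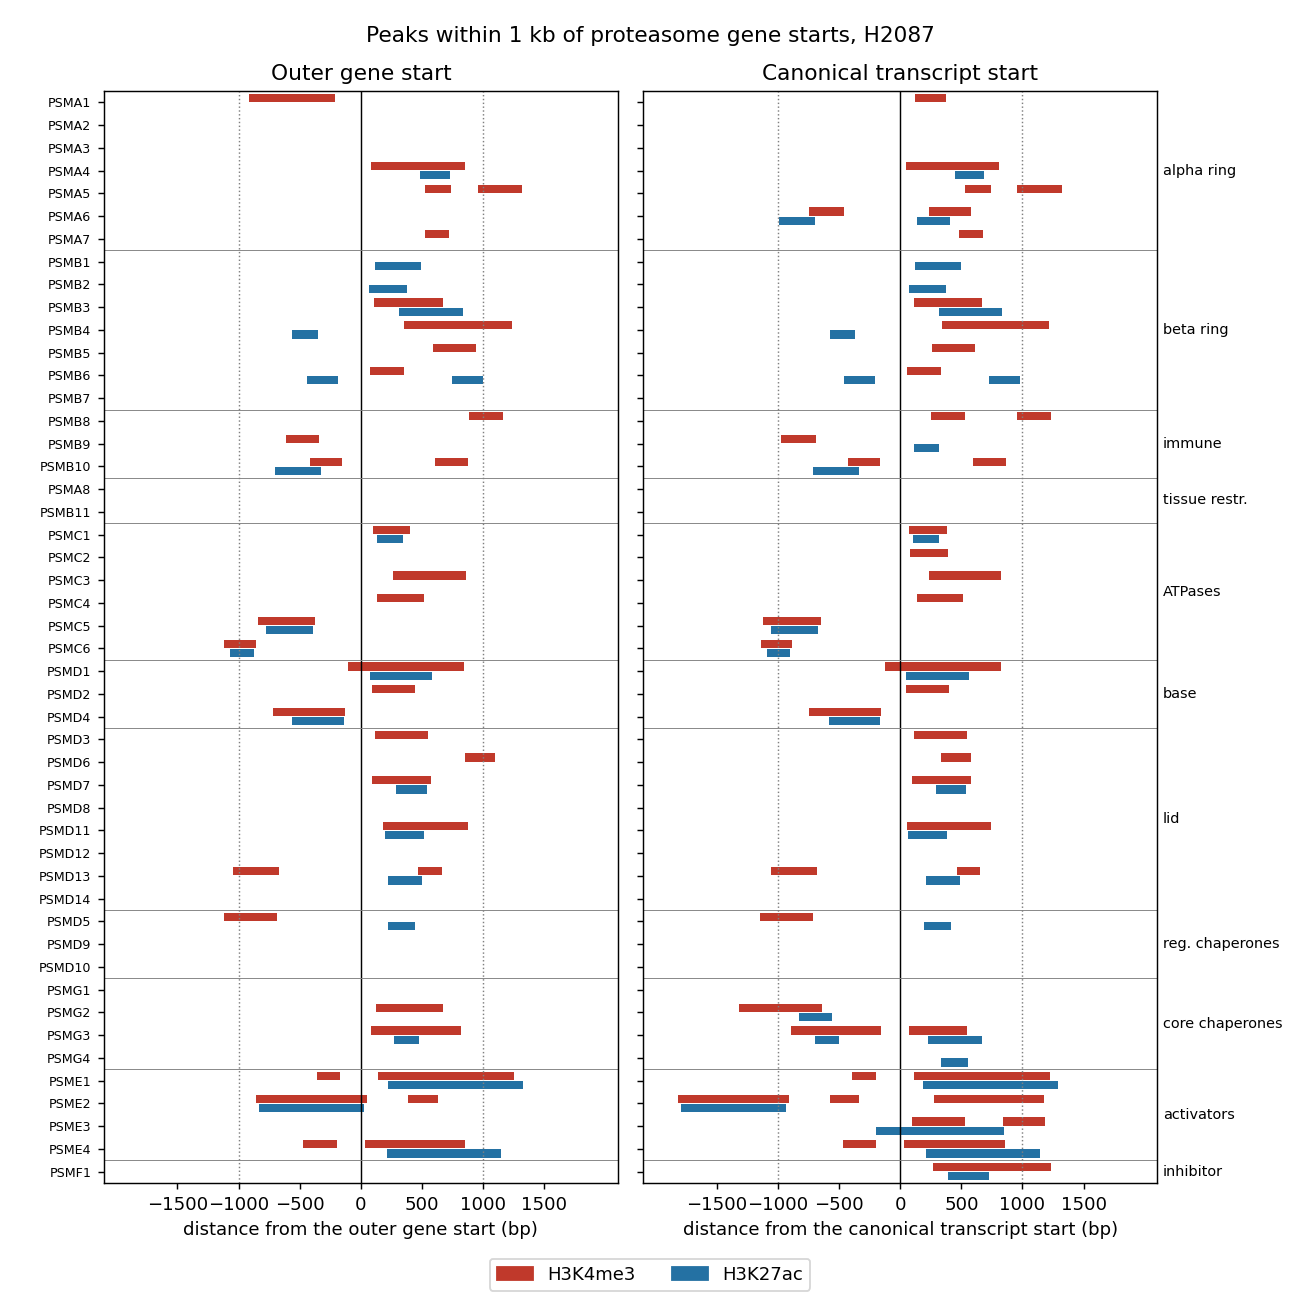
Peaks within 1 kb of each of the 48 gene starts, with distance in bp in the direction of transcription on the x axis and the genes in rows grouped by role. Red bars are H3K4me3 peaks and blue bars H3K27ac peaks, the dotted lines mark 1 kb, and most bars lie just to the right of the start, with 16 empty rows at the outer start and 11 at the canonical start.

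The alpha ring was marked mostly by H3K4me3. Of its 7 genes, 4 had H3K4me3 at the outer start (57.1%) and 1 had H3K27ac (14.3%). The shares of all protein-coding genes were 38.2% and 23.6%. PSMA4 was the gene with both marks. Its H3K4me3 peak (chr15:78832830-78833594, −log10 q 3.76) covered exon 1 and part of the first intron, and the H3K27ac peak (242 bp, −log10 q 4.32) lay wholly inside it. PSMA5 had H3K4me3 peaks of 213 and 365 bp in an intron (−log10 q 1.97 and 3.30), and its nearest H3K27ac peak was 1719 bp downstream of the start, outside the limit. PSMA7 had a single H3K4me3 peak of 193 bp (−log10 q 2.93), and the nearest H3K27ac peak was 12.5 kb away. In PSMA5 and PSMA7, H3K4me3 thus lay in introns, with no H3K27ac within 1 kb of the start.

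PSMA1 was counted through a peak that lies far from its canonical promoter. The outer start of PSMA1 is 123 kb upstream of the canonical start, and the H3K4me3 peak there (chr11:14665390-14666099, −log10 q 2.20) was centred 394 bp from the start of PDE3B. A separate H3K4me3 peak (253 bp, −log10 q 3.76) began 120 bp downstream of the canonical start of PSMA1, with its centre 246 bp from that start and 204 bp from the start of a protein-coding gene without a symbol. PSMA6 was unmarked at its outer start and carried 2 H3K4me3 and 2 H3K27ac peaks at the canonical start, 13.7 kb downstream. Its H3K27ac values were in the lower part of the list, with −log10 q of 3.04 and 3.76 for H3K4me3 and 1.65 and 1.89 for H3K27ac. PSMA2 and PSMA3 had no peak within 1 kb at either start.

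The beta ring had H3K27ac at more of its genes than the alpha ring, 5 of 7 against 1 of 7 at the outer start and 5 against 2 at the canonical start. The alpha ring (14.3% and 28.6%) lay below or near the H3K27ac share of all protein-coding genes (23.6% and 25.2%), and the beta ring (71.4%) above it. This difference between the rings corresponds to few genes and was not tested. H3K4me3 was present at 4 of the 7 beta genes (57.1%), against 38.2% of all outer and 41.3% of all canonical starts. PSMB3 carried overlapping peaks of both marks inside the gene, with −log10 q of 4.20 for H3K4me3 and 3.05 for H3K27ac. PSMB4 had the highest H3K4me3 value of the core particle (chr1:151372391-151373267, −log10 q 7.45), above 95.8% of the H3K4me3 list. This peak of 877 bp covered exons 2 to 4, while the H3K27ac peak of PSMB4 (−log10 q 4.52) lay upstream of the start and did not overlap it. In PSMB1 and PSMB2, H3K27ac was found without H3K4me3. The H3K27ac peak of PSMB1 began 118 bp downstream (378 bp, −log10 q 4.32), and the nearest H3K4me3 peak was 1141 bp upstream, nearest to the start of TBP. At PSMB2, the H3K27ac peak began 70 bp downstream (304 bp, −log10 q 2.82), and no H3K4me3 peak lay within 74.2 kb.

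The catalytic beta subunits differed among themselves. PSMB5, which carries the chymotrypsin-like activity, had an H3K4me3 peak in an intron (350 bp, −log10 q 3.76) and no H3K27ac within 22.1 kb. PSMB6, with the caspase-like activity, had an H3K4me3 peak of 283 bp over exon 1 (−log10 q 3.16) with H3K27ac on both sides of it. The upstream H3K27ac peak (chr17:4698998-4699249) had a −log10 q of 7.82, above 98.8% of the H3K27ac list, and the downstream one of 2.45. PSMB7, with the trypsin-like activity, had neither mark. Its nearest H3K4me3 peak was 62.3 kb away and its nearest H3K27ac peak 92.6 kb. All 3 are constitutive subunits, and of the 3 only PSMB6 carried both marks.

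Their immune counterparts each had H3K4me3 at the outer start (3 of 3), and 1 of the 3 had H3K27ac. The shares over all protein-coding genes were 38.2% and 23.6%. PSMB8 and PSMB9 lie side by side in the MHC region of chromosome 6, and their outer starts are 543 bp apart on opposite strands. A single H3K4me3 peak (chr6:32811298-32811574, 277 bp, −log10 q 3.72) lay within 1 kb of both outer starts and was counted for both genes. It was 388 bp from the canonical start of PSMB8 and 10533 bp from that of PSMB9, measured from its centre. At the canonical starts the genes shared no peak. PSMB8 then had a further H3K4me3 peak over exon 2 (−log10 q 3.76) and no H3K27ac.

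The canonical start of PSMB9 lies 488 bp from that of TAP1, a peptide transporter gene, on the opposite strand. The H3K4me3 peak there (chr6:32820992-32821281, −log10 q 3.16) was centred closer to TAP1 (344 bp) than to PSMB9 (832 bp). An H3K27ac peak of 204 bp began 117 bp inside PSMB9, but its −log10 q of 1.39 exceeded only 1.66% of the list. PSMB10, on chromosome 16, had H3K4me3 peaks on either side of its start, with −log10 q of 2.63 upstream and 1.80 over exons 3 and 4. The peak over exons 3 and 4 was centred nearer to the start of a gene without a symbol (480 bp) than to that of PSMB10 (728 bp). The H3K27ac peak of PSMB10 (375 bp, −log10 q 3.23) overlapped the upstream H3K4me3 peak by 89 bp. No H3K4me3 value at the immune genes reached 5. PSMA8, the alpha subunit of the testis, and PSMB11, the beta subunit of the thymus cortex, had neither mark. The nearest peaks of PSMA8 were 2119 kb (H3K4me3) and 346 kb (H3K27ac) away, and the nearest H3K4me3 peak to PSMB11 was that of PSMB5, 7.57 kb upstream.

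The regulatory particle had H3K4me3 at 13 of its 17 genes (76.5%) and H3K27ac at 8 (47.1%). The marks were present at 38.2% and 23.6% of all outer starts, and at 52.3% and 31.0% of CpG-rich ones. Each of the 8 genes with H3K27ac also had H3K4me3. Among the 6 ATPases, which unfold the substrate, 5 had H3K4me3 and 3 had both marks. PSMC3 had the highest ATPase H3K4me3 value (593 bp over exons 1 and 2, −log10 q 5.10), and its nearest H3K27ac peak was 1850 bp downstream. PSMC4 had H3K4me3 in an intron (−log10 q 4.27), and no H3K27ac peak lay within 548 kb. At PSMC1 the marks overlapped just inside the gene (−log10 q 2.97 for H3K4me3 and 2.82 for H3K27ac). At PSMC5 and PSMC6 both marks lay upstream and outside the canonical transcript. The peaks of PSMC6 were the most distant of these, 862 bp (H3K4me3, −log10 q 3.76) and 876 bp (H3K27ac, −log10 q 5.12) from the start. The H3K27ac peak of PSMC5 had a −log10 q of 1.39, near the lower end of the list. PSMC2 was unmarked at its outer start and had H3K4me3 over exon 1 at the canonical start, 19.1 kb downstream (307 bp, −log10 q 3.72).

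All 3 non-ATPase base subunits had H3K4me3, and 2 had H3K27ac, against 38.2% and 23.6% of all protein-coding genes. PSMD1, a scaffold of the base, had an H3K4me3 peak of 947 bp that spanned the gene start (chr2:231921455-231922401, −log10 q 6.30), with an H3K27ac peak of 515 bp inside it (−log10 q 5.86). PSMD4, a ubiquitin receptor, had both marks upstream of the start. Its H3K27ac peak (chr1:151226624-151227047, −log10 q 6.34) lay above 96.8% of the H3K27ac list. The H3K4me3 peak (−log10 q 3.43) lay above 58.7% of the H3K4me3 list. PSMD2 had H3K4me3 over exon 1 (349 bp, −log10 q 3.87), and the nearest H3K27ac peak was 15.7 kb away, nearest to the start of EIF4G1.

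Of the 8 lid subunits, 5 had H3K4me3 (62.5%) and 3 of these also had H3K27ac (37.5%). These shares lay near those of CpG-rich outer starts (52.3% and 31.0%) and above those of all protein-coding genes (38.2% and 23.6%). PSMD11 had the highest lid H3K4me3 value (690 bp, −log10 q 3.87), with a weak H3K27ac peak inside it (−log10 q 1.55). PSMD7 had overlapping marks with −log10 q of 2.59 for H3K4me3 and 3.83 for H3K27ac. PSMD13 had H3K4me3 on either side of the start, and the upstream peak was centred nearer to SIRT3. Its downstream H3K4me3 peak (−log10 q 3.40) overlapped H3K27ac (−log10 q 3.71) by 31 bp. PSMD3 and PSMD6 had H3K4me3 alone, with −log10 q of 2.92 and 2.97. PSMD14, the deubiquitinase of the lid, had no peak of either mark within 63.1 kb. PSMD8 and PSMD12 had neither mark within 1 kb, but H3K4me3 peaks lay in their introns, 1937 bp (−log10 q 2.51) and 1387 bp (−log10 q 4.60) downstream of the start.

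The core particle and the regulatory particle were then set side by side. H3K4me3 was present at 57.1% of the 14 constitutive core genes and 76.5% of the 17 regulatory particle genes, and H3K27ac at 42.9% and 47.1%. Both marks were present at 28.6% and 47.1%, and neither at 28.6% and 23.5%. At the canonical starts, H3K4me3 was present at 64.3% and 82.4%, and H3K27ac at 7 of 14 and 8 of 17. H3K4me3 was thus more frequent at the regulatory particle under both definitions, while the order for H3K27ac depended on the definition. The difference in H3K4me3 corresponds to few genes and was not tested, since the genes of 1 library are not replicates.

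**Figure D2:**
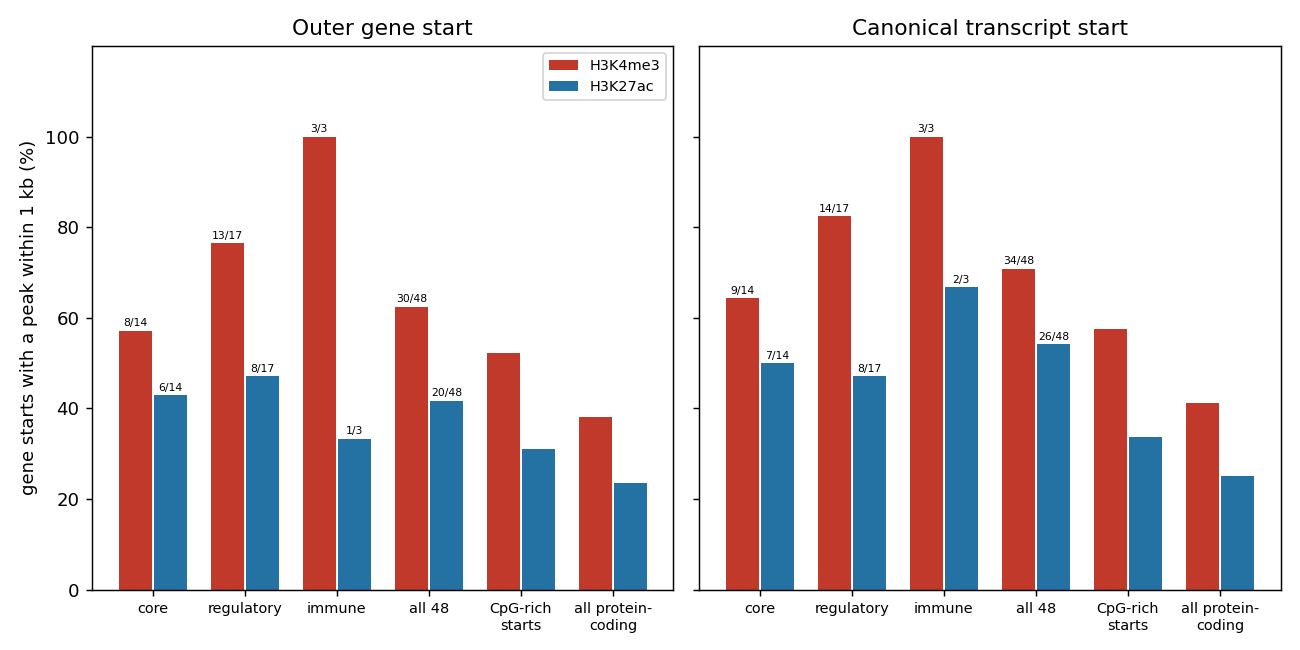
Share of gene starts with a peak within 1 kb (y axis, %) at the outer gene start and at the canonical transcript start, for H3K4me3 (red) and H3K27ac (blue), with the number of marked genes over each bar of proteasome genes. The core (14 genes), regulatory (17) and immune (3) groups and all 48 members stand above both the CpG-rich starts and all protein-coding starts for each mark, with the smallest gap for H3K27ac of the immune genes at the outer start (33.3% against 31.0% of CpG-rich starts).

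The activators, which open the core particle in place of the regulatory particle, held the strongest peaks of the family. PSME4 had an H3K4me3 peak of 823 bp over exon 1 (chr2:54197276-54198098, −log10 q 11.0), above 99.1% of the list, and an H3K27ac peak of 932 bp (−log10 q 6.04). PSME1 and PSME2 are induced by interferon and lie on chromosome 14, with canonical starts 10.4 kb apart. PSME1 had the widest peak of either mark among the members, an H3K4me3 peak of 1112 bp (chr14:24605515-24606626, −log10 q 6.66) and an H3K27ac peak of 1103 bp (−log10 q 8.31) that shared 1036 bp over exons 2 to 4. A further H3K4me3 peak of PSME1 (192 bp, −log10 q 6.24) lay upstream.

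PSME2 had H3K4me3 of 905 bp and 4 summits across its outer start (chr14:24616731-24617635, −log10 q 9.43), overlapped by H3K27ac over 860 bp (−log10 q 4.30). Both peaks were centred nearer to the start of a gene without a symbol (ENSG00000259529), 426 bp away for H3K4me3, than to the canonical start of PSME2, 1364 bp away. RNF31 starts on the opposite strand, 888 bp upstream of that canonical start. The 2 peaks began 912 bp (H3K4me3) and 937 bp (H3K27ac) upstream of it, just inside RNF31. Another H3K4me3 peak of PSME2 (239 bp, −log10 q 1.89) lay between its outer and canonical starts, and 1 of 905 bp covered exons 2 to 4 (−log10 q 3.80). PSME3 was unmarked at its outer start. Its canonical start, 9.01 kb downstream, had H3K4me3 over exon 1 (−log10 q 6.22) and an H3K27ac peak of 1044 bp (−log10 q 2.82) that covered the start. All 4 activators thus carried both marks at the canonical start, although the H3K27ac peak of PSME2 lay 937 bp from it. Over all protein-coding genes, 20.4% of canonical starts had both marks. PSMF1, an inhibitor of the core particle, likewise had both marks only at the canonical start, 5.36 kb downstream of the outer start, with −log10 q of 4.89 for H3K4me3 and 2.82 for H3K27ac.

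Among the assembly chaperones, H3K4me3 was present at 3 of 7 genes, while H3K27ac depended on the start used. The H3K4me3 count was near the background of all protein-coding genes (38.2% of outer and 41.3% of canonical starts). It was below that of CpG-rich starts (52.3% and 57.6%). Of the 3 chaperones of the regulatory particle, PSMD5 had H3K4me3 upstream (430 bp, −log10 q 4.60) and H3K27ac downstream (223 bp, −log10 q 2.82) of the start, without overlap. PSMD9 and PSMD10 had neither mark. Of the 4 chaperones of the core particle, PSMG3 had the highest value (733 bp, −log10 q 6.39) with an H3K27ac peak inside it (−log10 q 2.54). Both lay upstream of the canonical start of PSMG3, whose 5′ UTR was covered by a further pair of overlapping peaks, with −log10 q of 4.17 for H3K4me3 and 2.59 for H3K27ac. PSMG2 had H3K4me3 at its outer start (−log10 q 2.21), centred 336 bp from the start of SPIRE1. At its canonical start, 45.0 kb downstream, both marks lay in the direction of CEP76, with −log10 q of 4.60 for H3K4me3 and 1.66 for H3K27ac. PSMG4 had only H3K27ac (218 bp, −log10 q 2.82), at the canonical start, and PSMG1 had neither mark. The chaperones of the core particle thus had H3K27ac at 1 of 4 outer and 3 of 4 canonical starts, against 23.6% and 25.2% of all protein-coding genes.

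**Figure D3:**
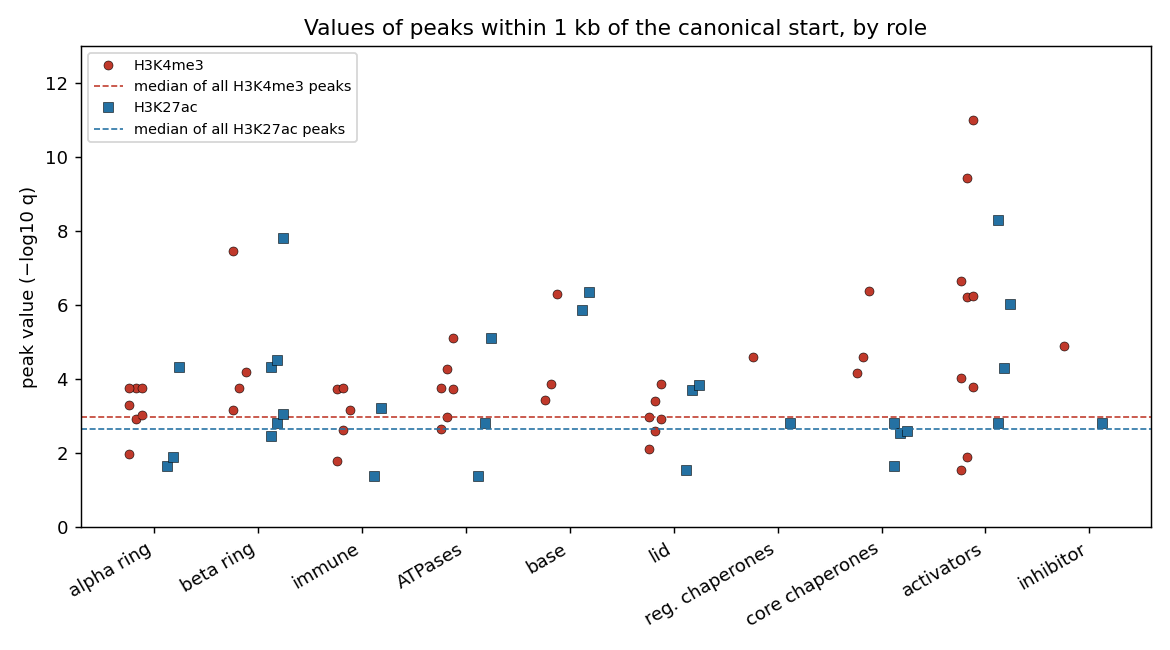
Values of the peaks within 1 kb of the canonical start (y axis, −log10 q), by role on the x axis, with a point per peak for H3K4me3 (red circles) and H3K27ac (blue squares) and dashed lines at the median of each whole list (2.97 and 2.65). The activators reach 11.0 for H3K4me3 and 8.31 for H3K27ac, and the immune genes stay below 5 for both marks.

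The outer start and the canonical start were over 1 kb apart in 8 members, PSMA1, PSMA6, PSMB9, PSMC2, PSMG2, PSMG4, PSME3 and PSMF1. In these, H3K4me3 was present at 3 outer starts and 7 canonical starts, and H3K27ac at 0 and 6. The same 2 definitions gave identical counts in the other 40 members, with 27 for H3K4me3 and 20 for H3K27ac. Of all 3301 protein-coding genes with starts over 1 kb apart, H3K4me3 was found at 25.2% of the outer and 40.7% of the canonical starts, and H3K27ac at 17.7% and 26.0%. The change in the counts of the family therefore came from these 8 genes.

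The marks lay mainly downstream of the start and rarely on it. Of the 36 pairs of an H3K4me3 peak and an outer start, which involve 35 distinct peaks, 25 (69.4%) had the centre downstream in the direction of transcription, and 2 peaks covered the start. For the 21 H3K27ac pairs, 14 (66.7%) had the centre downstream and 1 covered the start. These shares were close to those of all protein-coding genes (70.3% and 65.8% downstream). In the core particle, 8 of 9 H3K4me3 peaks lay downstream, compared with 10 of 14 in the regulatory particle. The position covered most often by H3K4me3 was 300 bp downstream of the canonical start, under a peak in 22 members (45.8%) and in 22.3% of all protein-coding genes. H3K27ac covered the same position in 14 members (29.2%), against 11.4%.

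**Figure D4:**
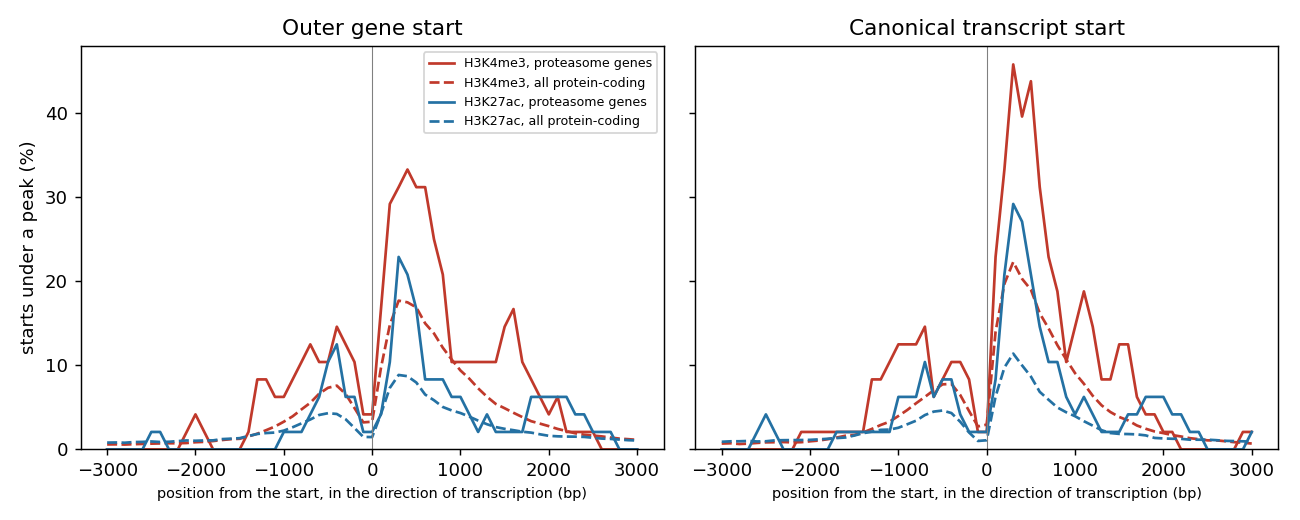
Share of starts under a peak (y axis, %) at positions every 100 bp within 3 kb of the start (x axis, bp, in the direction of transcription), for the 48 proteasome genes (solid) and all protein-coding genes (dashed), with H3K4me3 in red and H3K27ac in blue. Coverage dips around the start and is highest 300 to 400 bp downstream, where the solid lines lie above the dashed lines of the same colour.

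In width and H3K4me3 strength the peaks of the family were close to those at other genes. The median width of H3K4me3 peaks at the members was 378 bp (192 to 1112), compared with 360 bp at all protein-coding starts, and the median −log10 q was 3.72 (1.80 to 11.0) against 3.54. For H3K27ac, the median width was 304 bp (191 to 1103) against 311 bp, and the median −log10 q 3.83 (1.39 to 8.31) against 2.82. At the canonical starts the median −log10 q of the members was 3.76 for H3K4me3 and 2.82 for H3K27ac, and that of all protein-coding genes was again 3.54 and 2.82. The higher H3K27ac median at the outer starts was thus not found at the canonical starts, where 29 peaks instead of 21 entered. A −log10 q of at least 5 was reached by 8 H3K4me3 peaks at the outer starts (22.2%), near the 23.1% of all peaks at protein-coding starts. It was reached by 6 H3K27ac peaks (28.6%), against 12.9%. At the canonical starts the H3K27ac shares were 20.7% and 12.8%. Of these peaks at the outer starts, 4 with H3K4me3 and 2 with H3K27ac belonged to the activators.

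Some of the counted peaks were centred nearer to the promoter of another gene. Of the H3K4me3 peaks at the outer starts, 28 of 36 were centred nearest to the canonical start of the member, and 8 nearest to that of another protein-coding gene. For H3K27ac, the numbers were 20 of 21 and 1. At the limit of 1 kb from the outer start, the members just inside for H3K4me3 were PSMB8 (882 bp) and PSMC6 (862 bp). Just outside were PSMA2 (1128 bp), whose peak lay nearest to the start of MRPL32, and PSMB1 (1141 bp). For H3K27ac, the member just inside was PSMC6 (876 bp), and just outside was PSMA5 (1719 bp). At the canonical starts, the member just inside for H3K27ac was PSME2 (937 bp).

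The 11 members without either mark at both starts were PSMA2, PSMA3, PSMB7, PSMA8, PSMB11, PSMD8, PSMD12, PSMD14, PSMD9, PSMD10 and PSMG1. They make up 22.9% of the family, while 53.8% of all canonical starts and 37.0% of CpG-rich ones had neither mark. The unmarked members include constitutive subunits of both particles, such as PSMA3, PSMB7 and PSMD14. The nearest H3K4me3 peaks ranged from 1.13 kb (PSMA2) to 2119 kb (PSMA8). Besides PSMA8, the members PSMA3, PSMB7, PSMD14, PSMD9, PSMD10 and PSMG1 had none within 40 kb. PSMD10 lies on chromosome X, where 3.68% of the canonical starts had H3K4me3, and PSMA8 on chromosome 18, where 12.0% did. The other 9 lie on chromosomes with shares from 32.3% (chromosome 19) to 57.1% (chromosome 14). Chromosome 14 holds 8 members, of which 6 had H3K4me3 and 5 had H3K27ac, and chromosome 17 holds 7, of which 6 and 5 did. Of all canonical starts, 57.1% and 37.7% were marked on chromosome 14, and 47.5% and 28.7% on chromosome 17. The part of local copy number or depth in these shares was not tested.

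The promoter sequences were searched for motifs of factors known to act on proteasome or interferon-responsive genes, from 250 bases before to 50 after the canonical start and on both strands. TGACNNNGC, the core of the antioxidant response element bound by NFE2L1 and NFE2L2, occurred in 14 members (29.2%) and in 14.0% of all protein-coding starts. CCGGAAG, bound by ETS factors, occurred in 18 members (37.5%), against 14.0% of all and 19.1% of CpG-rich starts. CCAAT, bound by NF-Y, occurred in 20 (41.7%) against 35.9%. The NRF1 palindrome, GCGCA followed by its reverse complement, occurred in 1 (2.08%) against 1.69%. The interferon-stimulated response element, written as GAAA, any 2 bases and GAAA, occurred in 6 (12.5%) against 3.32%. At the outer starts the shares of the members were 29.2%, 25.0%, 41.7%, 2.08% and 10.4% in the same order, against 13.6%, 11.8%, 35.8%, 1.48% and 3.48% of all protein-coding starts. Matches to different motifs did not overlap at any member.

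**Figure D5:**
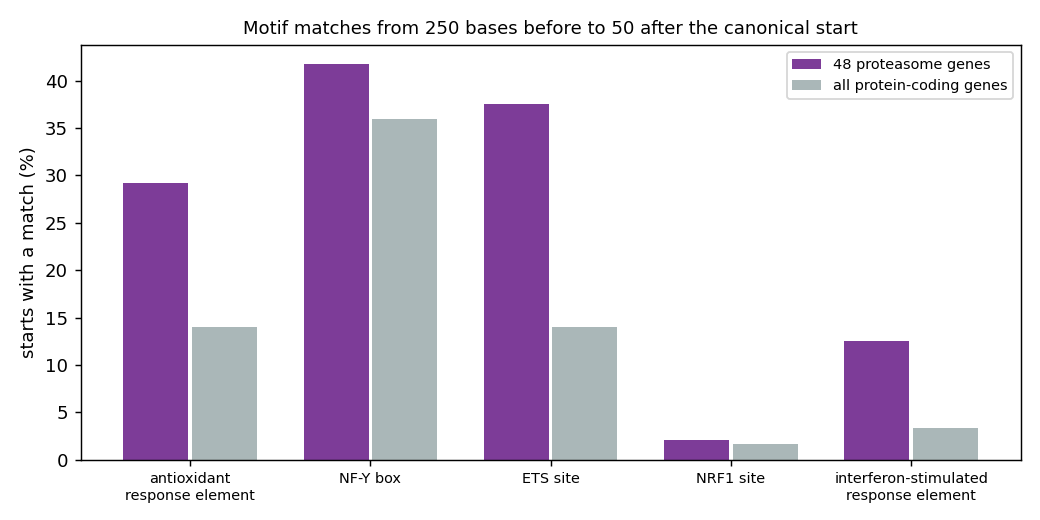
Share of canonical starts with a match (y axis, %) for each of 5 motifs (x axis), in the 48 proteasome genes (purple) and in all protein-coding genes (grey). The purple bars are higher for the antioxidant response element (29.2% against 14.0%), the ETS site (37.5% against 14.0%) and the interferon-stimulated response element (12.5% against 3.32%), and close to the grey bars for the NF-Y box and the NRF1 site.

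The core particle had the antioxidant response element at 3 of 14 genes, and the regulatory particle at 4 of 17. The 3 core promoters are shown because they belong to subunits with an H3K4me3 peak downstream of the start. Each sequence begins 150 bases before the canonical start, is written in the direction of transcription from GRCh37 (the same build as hg19), and has the matches in capitals.
PSMA7 (chr20:60718467-60718600, minus strand): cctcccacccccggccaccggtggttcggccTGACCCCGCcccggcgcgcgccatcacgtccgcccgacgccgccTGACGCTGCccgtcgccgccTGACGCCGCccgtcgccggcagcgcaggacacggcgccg
PSMB3 (chr17:36908844-36908993, plus strand): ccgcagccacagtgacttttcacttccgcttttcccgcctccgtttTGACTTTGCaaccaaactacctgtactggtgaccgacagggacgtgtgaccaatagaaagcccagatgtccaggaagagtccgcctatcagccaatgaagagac
PSMB6 (chr17:4699309-4699458, plus strand): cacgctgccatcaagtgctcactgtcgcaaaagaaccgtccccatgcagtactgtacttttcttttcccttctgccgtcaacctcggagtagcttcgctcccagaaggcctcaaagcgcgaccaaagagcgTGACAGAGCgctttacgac

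PSMA7 had 3 matches, at positions −119, −75 and −55 from the start, and its H3K4me3 peak began 527 bp downstream of the outer start. PSMB3 had 1 match at position −104 and PSMB6 had 1 at −19. Of the 14 members with this motif, 11 (78.6%) had H3K4me3 and 8 had both marks. Of the 34 without it, 23 (67.6%) had H3K4me3. Among all protein-coding starts with the motif, 44.9% had H3K4me3.

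The interferon-stimulated response element was found at 4 of the 5 members known to be induced by interferon, PSMB8, PSMB10, PSME1 and PSME2, and not at PSMB9 in this window. At the outer start, PSMB9 had a match and PSMB8 and PSME2 had none. The window at the outer start of PSMB9 contains the site counted for PSMB8 at its canonical start. The match of PSMB9 thus includes that same site and does not count as a separate element. The other members with a match were PSMB4 and PSMG4. All 6 sites are shown in 30 bases of GRCh37 in the direction of the gene, with the match in capitals. The match of PSMB8 and PSME1 reads TTTC first because it lies on the opposite strand.
PSMB8 (chr6:32811809-32811838, minus strand): gatctgtggcTTTCGCTTTCacttcctcct
PSMB10 (chr16:67970755-67970784, minus strand): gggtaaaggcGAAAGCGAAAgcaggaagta
PSME1 (chr14:24605398-24605427, plus strand): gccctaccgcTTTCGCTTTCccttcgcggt
PSME2 (chr14:24615828-24615857, minus strand): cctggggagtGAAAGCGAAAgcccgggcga
PSMB4 (chr1:151371971-151372000, plus strand): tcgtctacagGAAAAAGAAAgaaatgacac
PSMG4 (chr6:3259138-3259167, plus strand): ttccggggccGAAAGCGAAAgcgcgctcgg

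Of these 6, all but PSMG4 had H3K4me3 at the canonical start, and PSMB8 was the only one without H3K27ac. The marks were present at 70.8% and 54.2% of all members and at 41.3% and 25.2% of all protein-coding genes. Their shares over all starts with this element were not counted, so no link between element and mark can be read from the 6 genes. PSME2 and PSMB10 carried the match from positions −28 and −21, and PSME1 carried it from base 6 of the transcript.

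ETS sites were found at 9 of the 17 regulatory particle genes and at 3 of the 14 core genes. At the outer starts the counts were 7 and 2. The 9 sites of the regulatory particle are shown because they belong to marked and unmarked genes alike, with the match in capitals, reading CTTCCGG where it lies on the opposite strand. For PSMC2, which had 2 matches, the one nearest to the start is given.
PSMC1 (chr14:90722896-90722925, plus strand): tggtggaggaaCTTCCGGcagcggcagctc
PSMC2 (chr7:102988088-102988117, plus strand): ggaagacaccaCCGGAAGcaaggaaggtgc
PSMC6 (chr14:53173800-53173829, plus strand): gacggggccaaCCGGAAGgggagggctcat
PSMD6 (chr3:64009189-64009218, minus strand): cggagacgggaCCGGAAGccgggccgcagg
PSMD7 (chr16:74330699-74330728, plus strand): gggctgacgaaCCGGAAGaagaggaactgg
PSMD8 (chr19:38865183-38865212, plus strand): gcaaaagccaaCTTCCGGtcaccatcttga
PSMD12 (chr17:65362683-65362712, minus strand): tgcgcgggcaaCTTCCGGtgtgggtgacga
PSMD13 (chr11:236953-236982, plus strand): gccgctcggcgCCGGAAGtgagtgagcatt
PSMD14 (chr2:162164921-162164950, plus strand): aactagtgaacCCGGAAGtgcttcgcggcg

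Of these 9 genes, 6 had H3K4me3 at the canonical start, and the 3 unmarked genes of the regulatory particle, PSMD8, PSMD12 and PSMD14, were all among them. H3K4me3 was present at 70.8% of all members, 57.6% of CpG-rich starts and 41.3% of all protein-coding genes, so the count was near that of the family. The share over all starts with an ETS site was not counted. A match in this window thus occurred with and without the marks, and binding of the factors was not measured.

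Some members share their promoter region with a gene on the opposite strand. A protein-coding start on the opposite strand within 1 kb upstream was found at 8 members (16.7%) and at 9.35% of all protein-coding genes. The partners were MRPL32 (PSMA2), SS18L1 (PSMA7), TAP1 (PSMB9), SIRT3 (PSMD13), ATG4A (PSMD10), CEP76 (PSMG2), RNF31 (PSME2) and ACYP2 (PSME4). H3K4me3 was present at 6 of these 8 canonical starts (75.0%), against 71.6% of all divergent starts. Of the 40 members without a partner, 28 (70.0%) had H3K4me3, against 38.2% of all such starts. At the outer starts, H3K4me3 was present at 75.0% of the members with a partner and 60.0% of those without. The shares of all such outer starts were 68.8% and 35.1%. H3K27ac was present at 62.5% and 52.5% of the canonical starts, and at 37.5% and 42.5% of the outer starts. Both canonical shares lay above those of all such starts. Of all outer starts with and without a partner, 42.1% and 21.7% had H3K27ac. The members with a partner (3 of 8) thus fell below their background there, and those without lay above it. With 8 members in the smaller group, the differences between members with and without a partner amount to few genes.

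A list of 22 other genes of the pathway was examined in the same way. H3K4me3 was present at 13 of their outer starts (59.1%) and H3K27ac at 7 (31.8%), against 38.2% and 23.6% of all protein-coding genes. At the canonical starts the counts were 14 (63.6%) and 8 (36.4%), against 41.3% and 25.2%. These shares were nearer to those of CpG-rich starts, 52.3% and 31.0% at the outer and 57.6% and 33.8% at the canonical start. Among 8 proteins bound to the proteasome, ADRM1, a ubiquitin receptor, and PITHD1 had both marks, SEM1, UCHL5 and ECPAS had H3K4me3, USP14 had H3K27ac, and TXNL1 and UBE3C had neither. All 3 assembly or import factors, POMP, PAAF1 and AKIRIN2, had H3K4me3. Of 7 ubiquitin shuttle and unfolding factors, 4 had H3K4me3, and VCP and UBQLN4 had both marks. Of 4 genes in the transcriptional control of the proteasome, NFE2L1 had H3K27ac alone and DDI2 H3K4me3 alone at the outer and canonical starts. When any transcript start was allowed, NFE2L1 also had H3K4me3. NFE2L2 was unmarked at its outer start and had both marks at the canonical start, and NGLY1 had neither.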

How the data were processed

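ChIP-seq peak lists of H3K4me3 and H3K27ac from untreated H2087 cells were analysed (1 library per mark). Per the submitters' processing notes and the study's methods, the authors aligned reads to hg19 with Bowtie 1.1.1 and called peaks with MACS2 2.1.0. Input chromatin was saved for normalization. The threshold, the calling mode and whether the input entered the peak calling are not given in the sources used here. The deposited lists give positions and, without a header, a value read here as the −log10 q of each summit. It was never below 1.303, against 1.301 for a q of 0.05. It grows with depth and copy number, so values of the 2 marks, though shown side by side, are not comparable with each other.

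Distinct intervals were taken as peaks (20282 and 25275 entries gave 18585 and 24096 peaks), each with its highest value. Gene and canonical starts came from GENCODE 44 on GRCh37, the same build. For 282 protein-coding genes without a canonical transcript the outer start was used. Mitochondrial genes were left out. Calculations were made in Python 3.11.15 and the counting was tested on simulated peaks. Shares of genes are counts of a complete family, without intervals. The members, roles, lists and motifs were chosen with earlier results of these data known. Named were members with the highest value or the widest peaks per role, the catalytic, immune and interferon-induced subunits, unmarked members and those next to the 1 kb limit. The sequences shown were chosen after the matches were seen.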

Additional observations from a re-analysis of the deposited data

How the results depend on the processing

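No paired analysis was possible because the marks were measured once each, which also leaves no replicate to omit. For 11 results, 85 alternative values were computed, of which 63 stayed within a factor of 1.5 and 22 did not. When a peak had to cover the gene start, 2 members had H3K4me3, 1 had H3K27ac and 1 had both. The core particle then had 0 and 0, the regulatory particle 1 and 0, and the immune subunits 0 and 0. With a −log10 q of at least 5, 7 members had H3K4me3, 6 had H3K27ac and 3 had both. The core particle then had 1 and 1, the regulatory particle 2 and 3, and the immune subunits 0 and 0. Within 500 bp, H3K4me3 was left at 5 core genes. At the canonical or any transcript start, 2 immune subunits had H3K27ac. Merging within 1 kb gave a median H3K4me3 width of 690 bp. Keeping peaks above the list median, 3 kb in place of 1 kb, and removal of peaks under 200 bp left each count within the factor. Under each of these alternatives the share of members with H3K4me3, H3K27ac or both exceeded that of all protein-coding genes. For peaks on the outer start it did so by few genes (2 of 48 with H3K4me3 against 3.30%). For H3K4me3 peaks on the canonical start the order was reversed, with 1 of 48 (2.08%) against 2.95%. The excess also did not hold for the smaller groups. With a −log10 q of at least 5, all protein-coding genes had 10.7% and 3.53%, and the 1 of 14 core genes and 0 of 3 immune genes with H3K4me3 fell below that, as did the groups at 0 for H3K27ac and for peaks on the start (3.30% and 1.47%). The unknown depth limits every statement about a missing mark.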
